A study of Rattus with 52 samples.

Results

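The cardiac muscle cell contracts through its sarcomeres, and 33 genes of the sarcomere and of its anchoring plate, the Z-disc, were followed here in rat left ventricle (LV) and kidney. The genes were chosen by name from known roles, with earlier results of these data already known. Of the 33 names, 30 matched a row of the table of 20624 genes. Ttn, Tcap and Lmod2 were not analysed here. Of the 30, 5 belong to the thick filament and A-band, 5 to the thin filament, 11 to the Z-disc, 3 to the intercalated disc and myofibril assembly, 4 to intermediate filaments and chaperones, and 2 are ubiquitin ligases.

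Male Sprague Dawley rats underwent 5/6 nephrectomy by excision (5/6Nx, a model of chronic kidney disease in which little kidney tissue is left) or Sham surgery at 10 weeks of age. All rats then received a peritoneal catheter. From week 6 after surgery, PD rats received 3 exchanges of glucose-based dialysate a day for 8 days, while Control rats had the catheter and no dialysate, and the study ended at week 7. Polyadenylated RNA was sequenced in 52 libraries, with 6 libraries for every Sham group and 7 for every 5/6Nx group, in both tissues. The libraries held between 16.7 and 111.8 M reads on genes (median 44.2 M), and levels are given below as normalized reads, that is, reads divided by the size factor of the library. Differences are given on the deposited log2 scale, on which a gene without reads stands at 5.92 and a gene with 1000 normalized reads at 10.13, so that they approach log2 fold changes only for abundant genes. The labels do not state which LV and kidney libraries came from the same rat, although the library numbers in the titles form 26 pairs of 1 LV and 1 kidney library of the same surgery and treatment.

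As background, the sarcomere is built of actin-based thin filaments that slide along myosin-based thick filaments. The M-band and myosin-binding proteins hold the thick filaments in register, the troponin and tropomyosin complex makes the thin filament responsive to calcium, and the Z-disc joins the thin filaments of neighbouring sarcomeres and carries many proteins that respond to stretch. A heart under sustained load enlarges its muscle cells by adding sarcomeres, and its Z-disc and intercalated disc proteins are known as sensors of that load.

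Some LV libraries stood apart from the others of their group. In the LV Sham PD group, replicate 2 was the highest of its 6 libraries for 21 of the 30 members and replicate 3 the lowest for 18. In the LV 5/6Nx Control group, replicate 1 was the highest for 23 members and replicate 3 the lowest for 23. The labels name no sequencing batch.

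All 30 members were higher in the LV than in the kidney of Sham Control rats (limma, adjusted p under 0.05), and no LV library overlapped any kidney library for any of them. That test called 37.4% of the 16520 genes tested higher in the LV, and the groups did not overlap in that direction for 29.3%. The median difference of the members was 7.21 on the log2 scale against -0.050 over all genes. Tnnt2, the troponin subunit that fastens the complex to tropomyosin, was read from 517875 to 827499 (median 621731) times in the LV and from 25.6 to 69.9 (median 43.4) times in the kidney. Nrap, an actin-binding protein of assembling myofibrils, had no read in any of the 6 kidney libraries of Sham Control rats and from 25139 to 34467 (median 29990.2) normalized reads in the LV. Mybpc3, cardiac myosin-binding protein C, was also at 0 there. Other members were plainly present in the kidney: Cryab, a small heat shock protein, stood at 17333 ± 2395 and Tpm1, the main tropomyosin, at 7223 ± 599.9 normalized reads.

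**Figure D1:**
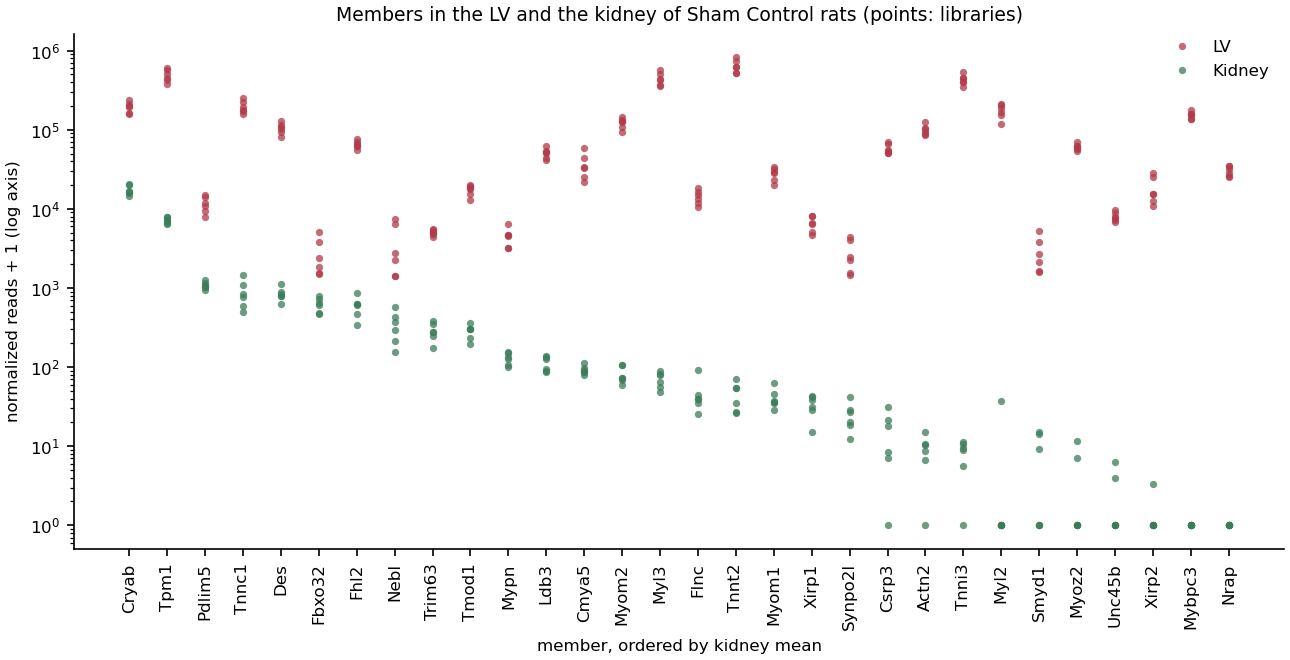
Normalized reads plus 1 (log axis) of the 30 members in the 6 LV and the 6 kidney libraries of Sham Control rats, each point 1 library, with members ordered by their kidney mean. The LV points lie above the kidney points for every member, and the kidney points of Mybpc3 and Nrap all lie at 0 reads.

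The members rose together with 5/6Nx among the rats that received PD. Of the 30 members, 28 were higher in LV 5/6Nx PD than in LV Sham PD (limma, adjusted p under 0.05) and none was lower, where 18.2% of the 15800 genes tested were called higher and 19.6% lower. The median log2 difference of the members was 0.65 against -0.027 over all genes. The remaining 2 were Nebl (log2 difference 1.15 ± 0.44 (SE), adjusted p = 0.0511) and Fbxo32 (log2 difference 0.75 ± 0.39 (SE), adjusted p = 0.138), and both were called without LV Sham PD replicate 2 (adjusted p = 0.00579 and 0.0152). The groups did not overlap for 3 members, Pdlim5, Tmod1 and Fhl2, where 4.03% of all genes had every 5/6Nx PD library above every Sham PD library. In bulk RNA of a tissue, more muscle cells and more RNA per muscle cell cannot be told apart.

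The cell type markers moved with this comparison. Of 15 cardiomyocyte genes outside the contractile apparatus, such as those of calcium handling, 11 were higher in LV 5/6Nx PD than in LV Sham PD (median log2 difference 0.61). Of the endothelial markers 6 of 7 were lower (median -0.57), and all 6 fibroblast markers (median -1.23) and all 6 macrophage markers (median -1.21) were lower. The summed endothelial markers ranged from 65969 to 142067 (median 92577) normalized reads in LV 5/6Nx PD and from 110563 to 164527 (median 146031) in LV Sham PD, and none of the 7 stood at 0. The summed markers of atrial muscle (Myl4, Myl7, Sln and Nppa) ranged from 15846 to 40680.3 (median 20726) normalized reads in LV Sham PD and from 21731 to 177182 (median 63797) in LV 5/6Nx PD, and 1 of the 4, Nppa, which encodes atrial natriuretic peptide and is also expressed by the loaded ventricle, was called higher. The part of these other cell types in the members' difference was not tested. The test of the members was repeated with every library scaled to the 15 cardiomyocyte genes. That scaling moved the median of all genes from -0.027 to -0.72. The median of the members then was -0.038, and 4 of the 30 were still called higher, namely Smyd1 (0.64), Synpo2l (0.54), Pdlim5 (0.44) and Xirp1 (0.38). For 15 members called higher before, from Myl3 (-0.35) to Mybpc3 (-0.099), the difference relative to those cardiomyocyte genes was below 0, and none of the 15 was called lower.

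Fhl2, a LIM-domain adaptor at the Z-disc, had the smallest adjusted p of the members. It ranged from 46399.8 to 70474 (median 56076) normalized reads in LV Sham PD and from 84577 to 116552 (median 88969) in LV 5/6Nx PD. Every 5/6Nx PD library lay above every Sham PD library (log2 difference 0.77 ± 0.12 (SE), adjusted p = 0.000762, 1.7-fold by the group means). In the Control rats it ranged from 56157 to 76172 (median 64249.98) in LV Sham and from 56213 to 91742 (median 76788) in LV 5/6Nx, with overlapping groups (log2 difference 0.23 ± 0.12 (SE), adjusted p = 0.322).

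Pdlim5, a PDZ and LIM protein that tethers signalling enzymes to the Z-disc, ranged from 5289 to 10289 (median 7868) normalized reads in LV Sham PD and from 12535 to 25660.1 (median 15911) in LV 5/6Nx PD. These groups were also fully apart (log2 difference 1.13 ± 0.20 (SE), adjusted p = 0.00123). Its Control groups, from 7806 to 15103 (median 11375) in LV Sham and from 6941 to 26552 (median 17415) in LV 5/6Nx, overlapped. Ldb3, also called ZASP or Cypher and a partner of alpha-actinin, was 41652 ± 9792 (SD, n = 6) in LV Sham PD and 67393 ± 8988 (SD, n = 7) in LV 5/6Nx PD (log2 difference 0.71 ± 0.14 (SE), adjusted p = 0.00202). Actn2, the alpha-actinin that crosslinks thin filaments in the Z-disc, rose from a mean of 84809.9 to 120106 (log2 difference 0.51 ± 0.13 (SE), adjusted p = 0.0091).

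Flnc, the muscle filamin that is recruited to strained Z-discs, had higher medians in both 5/6Nx groups than in both Sham groups. It ranged from 10691 to 18165 (median 14278) normalized reads in LV Sham Control, from 7236 to 17598 (median 13036) in LV Sham PD, from 14813 to 41370.5 (median 30502) in LV 5/6Nx Control and from 14494 to 31232 (median 21519) in LV 5/6Nx PD. The 5/6Nx groups overlapped the Sham groups at their lower end, and the difference was called in the PD rats (log2 difference 0.84 ± 0.20 (SE), adjusted p = 0.00576) but not in the Control rats (log2 difference 0.94 ± 0.22 (SE), adjusted p = 0.0883). Csrp3, the muscle LIM protein, had its highest mean in LV 5/6Nx Control, 90463, against 71973 in LV 5/6Nx PD, 57794 in LV Sham Control and 54633 in LV Sham PD. Its difference was called in the PD rats (log2 difference 0.39 ± 0.12 (SE), adjusted p = 0.0189). Of the other Z-disc members, Myoz2 (a calcineurin-binding calsarcin), Mypn (myopalladin) and Cmya5 (myospryn) rose with log2 differences of 0.57, 0.79 and 1.02, and Synpo2l, an actin-bundling Z-disc protein, rose by 1.23.

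At the intercalated disc, where muscle cells join end to end, all 3 members rose in the PD comparison. Xirp1, a Xin repeat protein that binds actin, ranged from 3354 to 8824 (median 5085) normalized reads in LV Sham PD and from 6357 to 12496 (median 11358) in LV 5/6Nx PD, and only the lowest 5/6Nx PD library and the highest Sham PD library crossed (log2 difference 1.07 ± 0.21 (SE), adjusted p = 0.00192). Its relative Xirp2 ranged from 8015 to 21173 (median 13311) and from 16619 to 40498 (median 23911) in those groups (log2 difference 0.86 ± 0.23 (SE), adjusted p = 0.0108). Xirp2 was highest in LV 5/6Nx Control, from 13871 to 57198 (median 43354), against from 10884 to 28363 (median 15391) in LV Sham Control. Nrap rose from a mean of 28319 to 40439 (log2 difference 0.54 ± 0.17 (SE), adjusted p = 0.0227).

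The thick filament and M-band members rose as well. Myl2 and Myl3, the regulatory and essential light chains of ventricular myosin, differed by 0.36 and 0.34 between LV 5/6Nx PD and LV Sham PD. Myl3 ranged from 372345 to 523489 (median 427664) normalized reads in LV Sham PD and from 433998 to 695524 (median 559139) in LV 5/6Nx PD, with overlapping groups (log2 difference 0.34 ± 0.13 (SE), adjusted p = 0.043). Mybpc3 ranged from 90146 to 176979.7 (median 130288) and from 149144 to 234151 (median 188877) (log2 difference 0.59 ± 0.15 (SE), adjusted p = 0.00886). The M-band proteins Myom1 and Myom2, which crosslink the thick filaments at the centre of the sarcomere, rose by 0.71 and 0.58. For Myom2 the lowest LV Sham PD library stood at 51186 and the lowest LV Sham Control library at 93507.

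Among the thin filament members, the 3 cardiac troponin subunits rose by similar amounts: Tnnt2 by 0.40, Tnni3, the inhibitory subunit, by 0.37 and Tnnc1, the calcium-binding subunit, by 0.46. Tnni3 ranged from 386619 to 444714 (median 426050.1) normalized reads in LV Sham PD and from 387032 to 693657 (median 569541) in LV 5/6Nx PD (log2 difference 0.37 ± 0.12 (SE), adjusted p = 0.0288), and its lowest 5/6Nx PD library lay at the low end of the Sham PD range. Tpm1 rose from a mean of 409831 to 595133 (log2 difference 0.53 ± 0.14 (SE), adjusted p = 0.00982). Tmod1, which caps the pointed end of the thin filament, ranged from 11053 to 17328 (median 13261) in LV Sham PD and from 18751 to 32974 (median 21317) in LV 5/6Nx PD, with no overlap (log2 difference 0.71 ± 0.14 (SE), adjusted p = 0.00187).

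Des, which encodes desmin, the intermediate filament of muscle, rose from a mean of 98990.3 in LV Sham PD to 166993 in LV 5/6Nx PD (log2 difference 0.77 ± 0.19 (SE), adjusted p = 0.00739), and Cryab, which chaperones desmin, from 199341 to 257077 (log2 difference 0.35 ± 0.11 (SE), adjusted p = 0.0266). Smyd1 and Unc45b, which assist myosin folding and thick filament assembly, rose by 1.33 and 0.55. Smyd1 had the largest difference of the 30 but also a wide spread, from 1069 to 5672 (median 1702) normalized reads in LV Sham PD and from 2029 to 8693 (median 5311) in LV 5/6Nx PD (log2 difference 1.33 ± 0.37 (SE), adjusted p = 0.0116). The ubiquitin ligases Trim63 (MuRF1) and Fbxo32 (atrogin-1), known for marking muscle proteins for degradation, were higher or not called: Trim63 rose (log2 difference 0.48 ± 0.16 (SE), adjusted p = 0.034), and Fbxo32 ranged from 929 to 5505 (median 1459) in LV Sham PD and from 1124 to 5138 (median 3269) in LV 5/6Nx PD.

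For 29 of 30 members both 5/6Nx medians lay above both Sham medians, the exception being Myom2. The lowest median was that of LV Sham PD for 27 members and that of LV Sham Control for Cryab, Tnni3 and Tnnt2. The highest was that of LV 5/6Nx PD for 16 members and that of LV 5/6Nx Control for 14. These orders are descriptions, and neighbouring groups in them overlapped except where stated.

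The medians of the members not given by their ranges follow in the order LV Sham Control, LV Sham PD, LV 5/6Nx Control and LV 5/6Nx PD, in normalized reads that are not divided by transcript length. In the thick filament and M-band they were 155323, 130288, 199561 and 188877 for Mybpc3, 177361, 172338, 233887 and 219791 for Myl2 and 428463, 427664, 479605 and 559139 for Myl3. Myom1 had medians of 28749.7, 22411, 35234 and 34842, and Myom2 of 127250.03, 96955, 143761 and 123326. The myosin light chains thus had nearly equal medians in both Sham groups, while those of Myom1 and Myom2 were lower in LV Sham PD than in LV Sham Control. In the thin filament they were 621731, 646453, 799684 and 852348 for Tnnt2, 422715, 426050.1, 429433 and 569541 for Tnni3 and 185534, 181084, 220200.2 and 256663 for Tnnc1. Tpm1 had medians of 476865, 422342, 554924 and 588255, and Tmod1 of 18100.5, 13261, 21334 and 21317. Tnni3 had almost the same median in 3 of the groups and a higher one in LV 5/6Nx PD.

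In the Z-disc the medians, in the same order, were 98023, 88737, 115734 and 113336 for Actn2, 51762, 38975, 67752 and 69541 for Ldb3 and 61072, 55337, 74808 and 79814 for Myoz2. Csrp3 had 55071, 54093, 79921 and 71431, Mypn 4556, 3086, 6826 and 6155 and Cmya5 33696, 25203, 64461 and 65453. The more variable Synpo2l had 2338, 1388, 5376 and 3922. These 7 share the step between Sham and 5/6Nx, which was widest for Synpo2l and Cmya5. At the intercalated disc Xirp1 had 6507, 5085, 10118 and 11358 and Nrap 29990.2, 27296, 47993 and 39314. Des had 105202, 91421, 157428 and 159617, Cryab 196584, 202879.7, 260007 and 265763, Unc45b 7846, 7332, 9926 and 9807 and Smyd1 2424, 1702, 4508 and 5311. The ligases had 5077, 4698, 5735 and 6490.1 for Trim63 and 2128, 1459, 2941 and 3269 for Fbxo32.

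**Figure D2:**
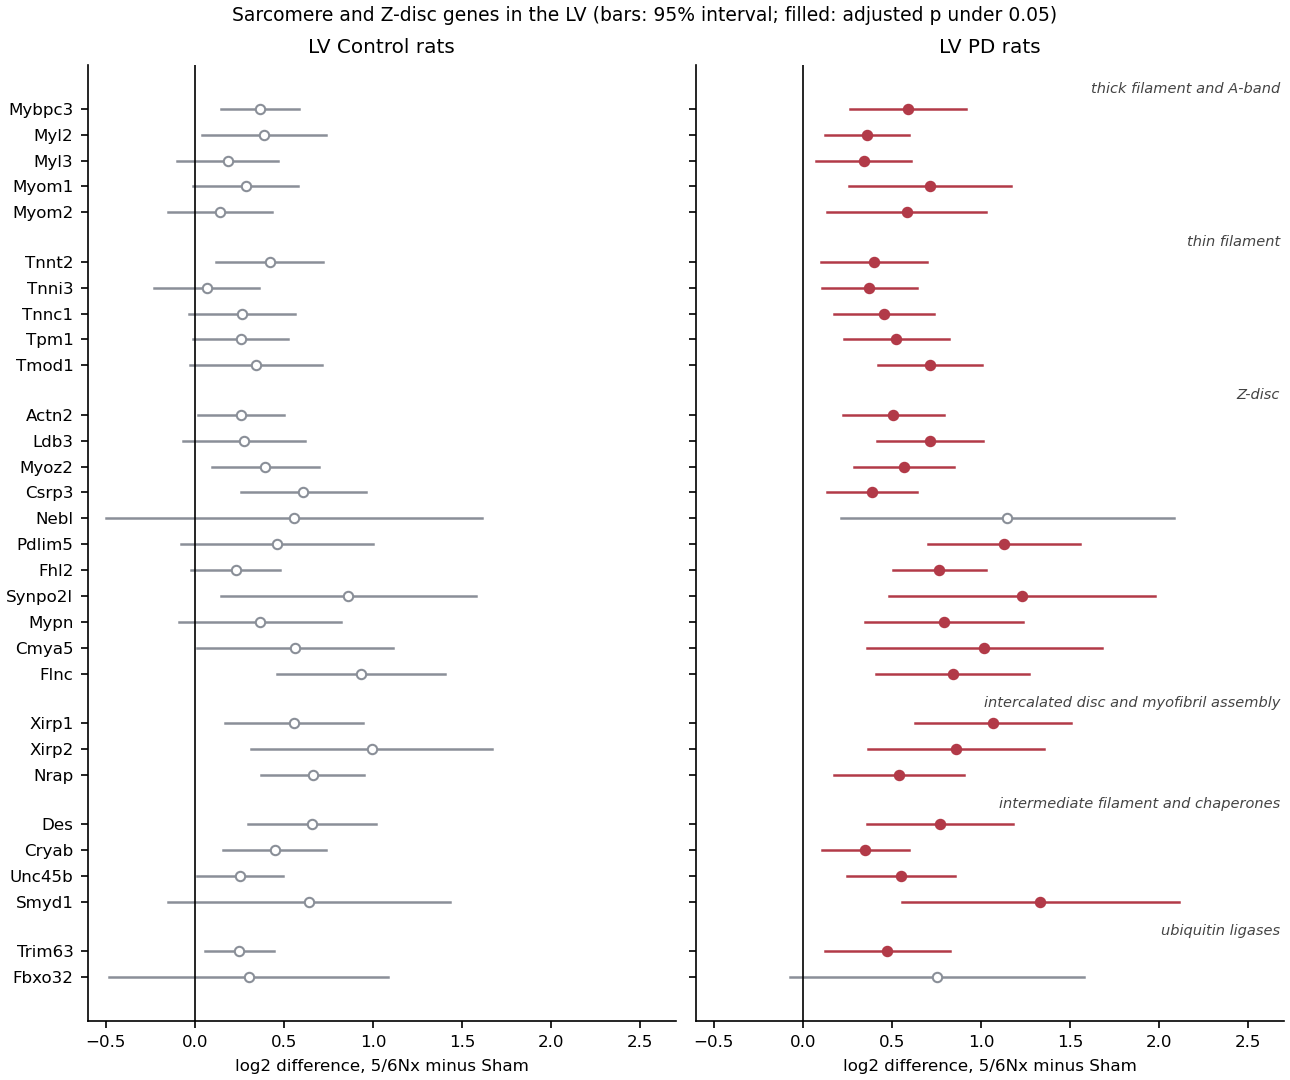
Log2 difference of each of the 30 members between 5/6Nx and Sham in the LV of Control rats (left) and of PD rats (right), with 95% intervals, grouped by role. Filled points passed the limma test (adjusted p under 0.05): 0 on the left and 28 on the right, while the points lie above 0 for all 30 members on both sides.

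Leaving out LV Sham PD replicate 2 gave 29 members higher, and leaving out LV Sham PD replicate 3 gave 21, the lowest count of the 13 such tests. The calls lost without that replicate were those of Myl3 (adjusted p = 0.0959), Myom2 (0.0958), Tnnt2 (0.084), Trim63 (0.0837), Nrap (0.0573), Tnni3 (0.0551) and Cryab (0.0548). Nrap lost its call without LV Sham PD replicate 3 or 5, and Cryab without LV Sham PD replicate 3 or LV 5/6Nx PD replicate 1. Tnni3 and Trim63 each lost it in 6 of the 13 tests, among them those without LV Sham PD replicates 3 and 4 and LV 5/6Nx PD replicates 1, 2 and 4, with the sixth being LV Sham PD replicate 6 for Tnni3 and replicate 5 for Trim63. Tnnt2 and Myom2 lost it in 8 tests each and Myl3 in 10, where it held only without LV Sham PD replicate 1 or LV 5/6Nx PD replicate 3 or 5. Nebl was called without LV Sham PD replicate 2 or LV 5/6Nx PD replicate 4, 6 or 7, and Fbxo32 without LV Sham PD replicate 2 or LV 5/6Nx PD replicate 7.

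**Figure D3:**
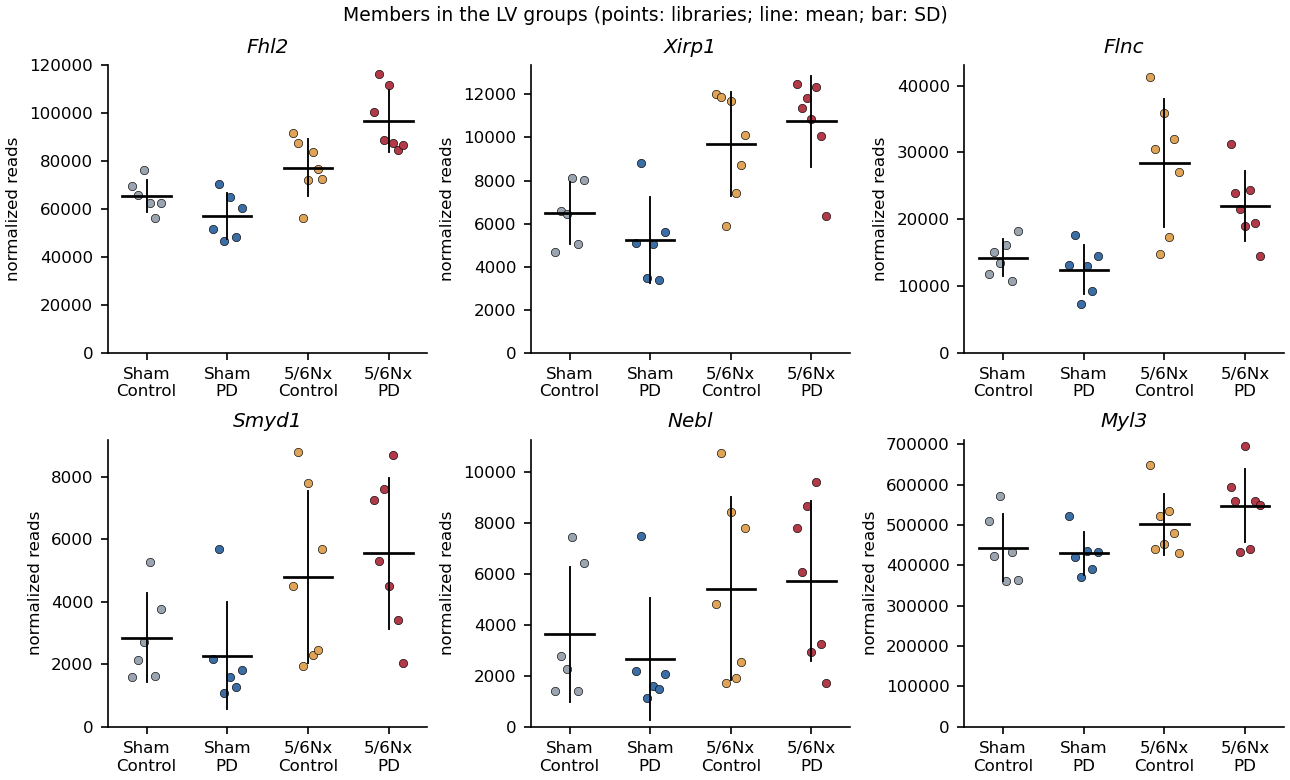
Normalized reads of Fhl2, Xirp1, Flnc, Smyd1, Nebl and Myl3 in the LV groups, each point 1 library (6 per Sham group, 7 per 5/6Nx group), with the mean (line) and the SD (bar). Every 5/6Nx PD library of Fhl2 lies above every Sham PD library, while in Smyd1 and Nebl single Sham PD libraries at 5672 and 7483 reach far into the 5/6Nx ranges.

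In the Control rats, the members pointed the same way without passing the test. All 30 log2 differences between LV 5/6Nx Control and LV Sham Control were above 0, where 49.9% of all genes were, with a median of 0.38 against -0.00052 over all genes. The limma test called 0 of 30, and 0.0697% of the 15792 genes tested in either direction. At an unadjusted p under 0.05 stood 16 members, against 17.5% of all genes. The smallest adjusted p were those of Nrap (log2 difference 0.66 ± 0.14 (SE), adjusted p = 0.0767), Flnc and Des (log2 difference 0.66 ± 0.17 (SE), adjusted p = 0.105). Limma-voom with sample quality weights called 7 members higher, Mybpc3, Csrp3, Flnc, Xirp1, Xirp2, Nrap and Des, and a limma fit over all LV groups called Csrp3, Flnc and Nrap. Without LV 5/6Nx Control replicate 3, 5 were called, namely Csrp3 (adjusted p = 0.0438), Flnc (0.022), Nrap (0.0165), Xirp1 (0.0478) and Xirp2 (0.0389). Without its replicate 5, Flnc (0.0474) and Nrap (0.0464) were called. Calls over all genes also rose with limma-voom and with the fit over all LV groups. They varied widely when 1 library was left out, as given in the closing section. No member had groups that did not overlap, where 0.431% of all genes had every 5/6Nx library higher. The cardiomyocyte genes outside the contractile apparatus had a median difference of 0.22, the endothelial markers of -0.33 and the fibroblast markers of -0.95, and none of these was called. The summed atrial markers ranged from 9434 to 60747 (median 12607) normalized reads in LV Sham Control and from 48951 to 552643 (median 132634) in LV 5/6Nx Control, and none of the 4 was called. Their part in the members' difference was not tested.

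Averaged over both treatments, 27 of 30 members were higher in 5/6Nx LV (17.9% of the 16312 genes tested) and none was lower (20.2%), with a median of 0.50 against -0.013. Fhl2 (log2 difference 0.50 ± 0.084 (SE), adjusted p = 0.00016), Flnc (log2 difference 0.89 ± 0.16 (SE), adjusted p = 0.00024), Xirp1 (log2 difference 0.81 ± 0.14 (SE), adjusted p = 0.00025) and Des (log2 difference 0.71 ± 0.13 (SE), adjusted p = 0.000348) had the smallest adjusted p, and Synpo2l the largest difference (1.05). The members not called were Tnni3 (log2 difference 0.22 ± 0.091 (SE), adjusted p = 0.0578), Nebl (log2 difference 0.85 ± 0.35 (SE), adjusted p = 0.0591) and Fbxo32 (log2 difference 0.53 ± 0.29 (SE), adjusted p = 0.146). Leaving out 1 library gave 26 to 29 calls. Nebl was called in 7 of these fits, with the smallest adjusted p, 0.0178, without LV Sham PD replicate 2, and Fbxo32 was called without that library (adjusted p = 0.0391). Tnni3 was called in 5, with the smallest adjusted p, 0.0177, without LV 5/6Nx PD replicate 5, and Myom2 lost its call in 4, with the largest, 0.0617, without LV Sham PD replicate 3. Of the cardiomyocyte genes outside the contractile apparatus 10 of 15 were higher, and 5 of 7 endothelial, 6 of 6 fibroblast and 5 of 6 macrophage markers were lower. Of the atrial markers Nppa was higher and the other 3 were not called. Scaled to those cardiomyocyte genes, which moved the median of all genes to -0.49, 8 members were still called higher: Synpo2l (0.56), Smyd1 (0.50), Xirp2 (0.44), Flnc (0.41), Xirp1 (0.33), Pdlim5 (0.31), Cmya5 (0.31) and Des (0.23). Those 8 include both Xin repeat proteins, the muscle filamin and desmin. No troponin subunit, tropomyosin or myosin light chain was among them. The 8 had pooled SDs within the LV groups of 0.351 (Des) or more before scaling. Those of the troponin subunits, Tpm1 and the myosin light chains were 0.252 (Myl2) or less. In the PD rats alone that scaling left Flnc, Xirp2, Cmya5 and Des without a call.

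PD against Control gave no call among the members in either surgery by the limma test used here. At the same adjusted p threshold, the paper's own tests called more genes in both of these comparisons. Those tests were not used here. In Sham LV, 27 of the 30 log2 differences were below 0 (48.4% of all genes), with a median of -0.24 against 0.0083 over all genes. The limma test called 0 of 30, and 1.23% of the 15759 genes tested. Unadjusted p under 0.05 was reached by 3 members (19.5% of all genes), Pdlim5 (log2 difference -0.57 ± 0.20 (SE), adjusted p = 0.149), Tmod1 (log2 difference -0.34 ± 0.13 (SE), adjusted p = 0.177) and Myom2 (log2 difference -0.53 ± 0.21 (SE), adjusted p = 0.197), and limma-voom called 0. The 95% intervals of the 30 differences together ran from -1.45 to 0.58. Without LV Sham PD replicate 2, Synpo2l and Tmod1 were called lower, by 0.97 on the log2 scale (adjusted p = 0.041) and 0.41 on the log2 scale (adjusted p = 0.0491). Calls over all genes also varied widely between the fits that left out 1 library. The endothelial markers had a median difference of 0.27 in this comparison with 0 of 7 called, and 2 of 6 macrophage and 4 of 5 neutrophil markers were called higher.

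In 5/6Nx LV, 18 of the 30 differences between PD and Control were above 0 (49.4% of all genes), with a median of 0.021. The limma test called 0 of 30, and 0.0896% of the 15622 genes tested, with 1 member at an unadjusted p under 0.05 (8.53% of all genes), Fhl2 (log2 difference 0.33 ± 0.12 (SE), adjusted p = 0.44), and limma-voom called 0. The intervals ran from -1.09 to 1.14. Xirp2, Flnc and Csrp3 had lower means in 5/6Nx PD than in 5/6Nx Control, with log2 differences of -0.47, -0.32 and -0.30, none of them called.

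The difference between the PD changes of 5/6Nx and Sham rats was tested directly. It was above 0 for 23 of 30 members (46.3% of all genes), with a median of 0.28, and limma called 0 of 30 and 0.693% of the 16312 genes tested. Fhl2 came nearest (log2 difference 0.54 ± 0.17 (SE), adjusted p = 0.099) and was the only member at an unadjusted p under 0.05 (18.2% of all genes). Limma-voom called it, as did the limma test without LV Sham PD replicate 2 (adjusted p = 0.0432) or without LV 5/6Nx Control replicate 1 (adjusted p = 0.0466). Calls over all genes also rose with limma-voom and varied widely when 1 library was left out. That 28 members passed in the PD rats and none in the Control rats does not show that the effect of 5/6Nx differed between them. Averaged over both surgeries, limma called 0 of 30 for PD against Control (0.515% of all genes), with 1 member, Myom2 (log2 difference -0.31 ± 0.13 (SE), adjusted p = 0.487), at an unadjusted p under 0.05 (8.66% of all genes), and limma-voom called 0.

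The members differed from each other in how much they varied inside a group. The pooled SD within the LV groups ran from 0.209 for Fhl2 to 0.98 for Nebl on the log2 scale, and 26 of 30 lay above the median of all genes tested, 0.225. Nebl, which encodes nebulette, a cardiac relative of nebulin, ranged from 1402 to 7455 (median 2533) normalized reads in LV Sham Control, from 1130.5 to 7483 (median 1849) in LV Sham PD, from 1734 to 10766 (median 4843) in LV 5/6Nx Control and from 1705 to 9628 (median 6098) in LV 5/6Nx PD. All these ranges overlapped, and within each group the highest library was at least 5.32 times the lowest. Fbxo32, Smyd1, Synpo2l and Cmya5 followed with SDs of 0.789, 0.767, 0.713 and 0.585, whereas Actn2, Cryab, Myl3 and Tnni3 lay between 0.215 and 0.226. The same libraries were often at the extremes: LV Sham PD replicate 2 held the group's highest value for Nebl, Fbxo32, Smyd1, Synpo2l and Cmya5.

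The libraries at the extremes for the members often lay at the other extreme for the endothelial markers. The library with the lowest summed endothelial markers was LV Sham PD replicate 2, LV 5/6Nx Control replicate 1 and LV 5/6Nx PD replicate 1 in those groups, and these held the highest value for 21, 23 and 18 of the 30 members. In LV Sham Control it was replicate 4, which was highest for 11, while replicate 3 was highest for 12. The library with the highest endothelial sum was lowest for 17 members in LV Sham Control (replicate 5), 23 in LV 5/6Nx Control (replicate 3), 15 in LV 5/6Nx PD (replicate 7) and 8 in LV Sham PD (replicate 5). In that last group replicate 3 was lowest for 18. LV 5/6Nx Control replicate 1 also had the highest sum of the 4 atrial markers, 552643 normalized reads against a group median of 132634. The part of tissue composition in the spread of the members was not tested.

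**Figure D4:**
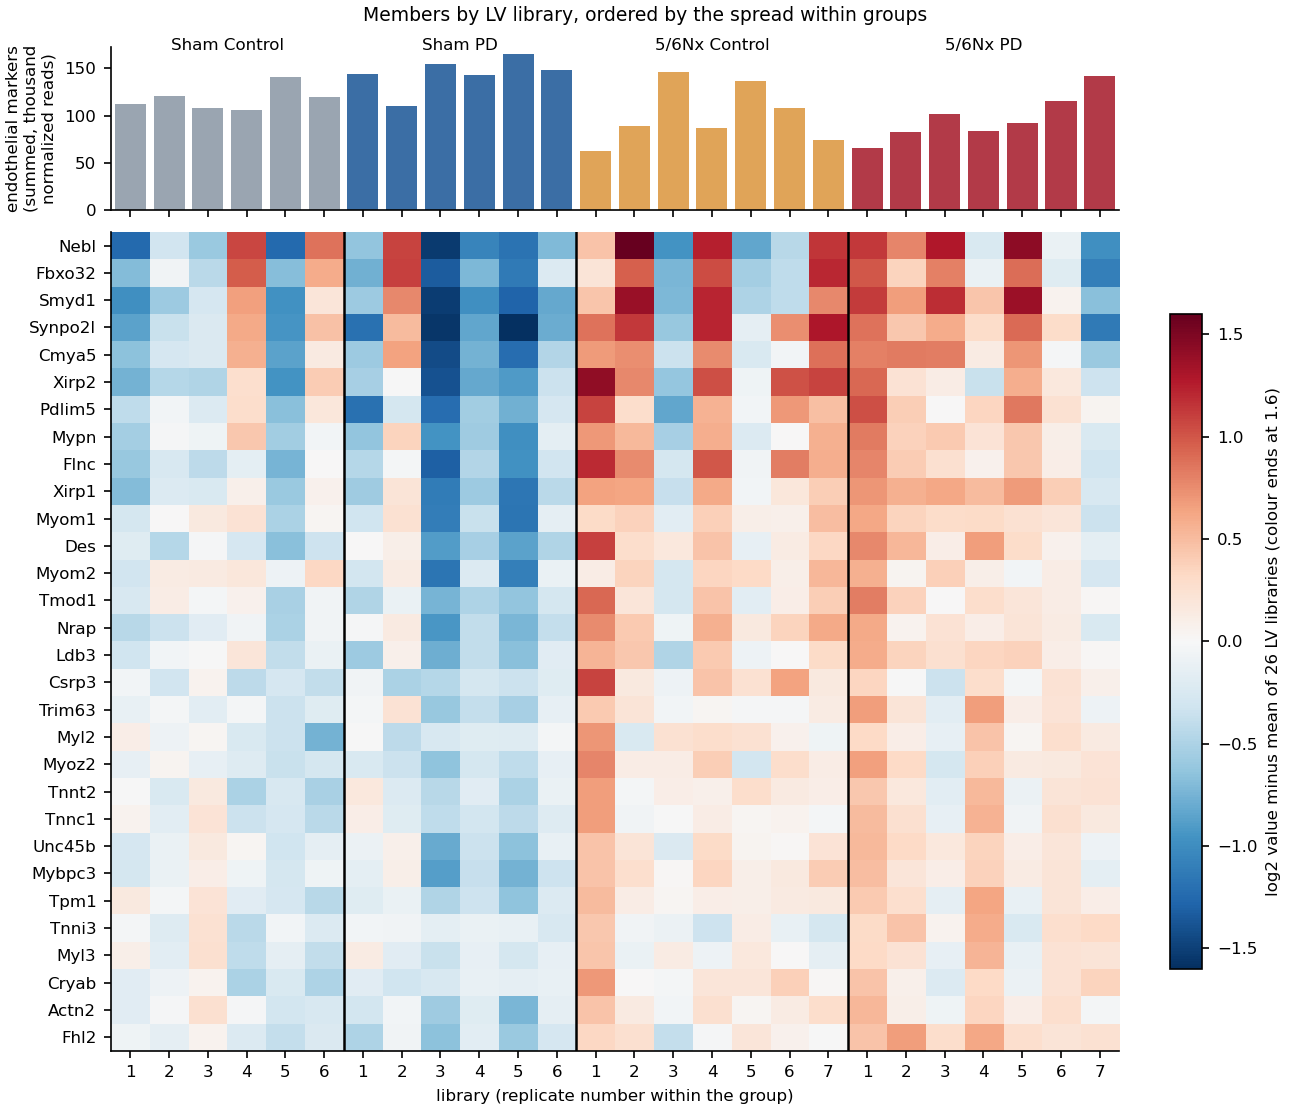
Summed endothelial markers in each of the 26 LV libraries (top, in units of 1000 normalized reads) and the log2 value of each member minus its mean over the 26 libraries (bottom, red higher, blue lower), with members ordered by their spread within groups. The upper rows, from Nebl to Pdlim5, vary widely inside every group, and the 5/6Nx columns are redder than the Sham columns in most rows.

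A wider list of other sarcomere and Z-disc genes also holds some genes outside the sarcomere, such as Casq2 and Hspb1. Of this list 50 were tested in the PD rats, and 26 were higher and 2 lower in LV 5/6Nx PD (median 0.37 log2). Averaged over both treatments 29 of 50 were higher and 4 lower. The genes with the smallest adjusted p in the PD rats were Trim55, a ligase related to Trim63 (log2 difference 1.13 ± 0.18 (SE), adjusted p = 0.000762), Nexn, an actin-binding Z-disc protein (log2 difference 0.71 ± 0.12 (SE), adjusted p = 0.000841), Actc1, cardiac actin (log2 difference 0.70 ± 0.13 (SE), adjusted p = 0.00138), Myoz1, the calsarcin of fast skeletal muscle, which fell (log2 difference -0.73 ± 0.13 (SE), adjusted p = 0.00153), Hspb7 (log2 difference 0.83 ± 0.16 (SE), adjusted p = 0.00191) and Casq2, the calcium store protein of the sarcoplasmic reticulum (log2 difference 0.83 ± 0.16 (SE), adjusted p = 0.00194). In the averaged comparison they were Pdlim7 (log2 difference 0.46 ± 0.072 (SE), adjusted p = 0.000104), Acta1 (log2 difference 1.11 ± 0.19 (SE), adjusted p = 0.000158), Nexn (log2 difference 0.50 ± 0.087 (SE), adjusted p = 0.000197), Actc1 (log2 difference 0.55 ± 0.094 (SE), adjusted p = 0.000199), Hspb7 (log2 difference 0.73 ± 0.13 (SE), adjusted p = 0.000244) and Myoz1 (log2 difference -0.57 ± 0.10 (SE), adjusted p = 0.000257). Acta1, the skeletal actin that cardiac muscle re-expresses under load, ranged from 39496 to 70653 (median 49421) normalized reads in LV Sham Control, from 23709.6 to 61333 (median 41377) in LV Sham PD, from 50269.9 to 204462 (median 143712) in LV 5/6Nx Control and from 53866 to 121044 (median 81145) in LV 5/6Nx PD. Its 5/6Nx ranges lay higher but overlapped the Sham ranges.

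The myosin heavy chains were read apart from the members. Myh7, the slow isoform that rises in loaded rodent hearts, rose in the averaged comparison (log2 difference 0.53 ± 0.17 (SE), adjusted p = 0.0152), with means of 431171 in LV Sham Control, 539687 in LV Sham PD, 810181 in LV 5/6Nx Control and 610984 in LV 5/6Nx PD. It was not called in the PD rats alone (log2 difference 0.13 ± 0.23 (SE), adjusted p = 0.684) or in the Control rats alone (log2 difference 0.93 ± 0.22 (SE), adjusted p = 0.0915). Myh6, the fast isoform of the adult rodent ventricle, was not called in any LV comparison (averaged over both treatments, log2 difference 0.22 ± 0.11 (SE), adjusted p = 0.108). These 2 isoforms are close in sequence, and how shared reads were assigned is not given in the sources used here. PD against Control called 1 of 48 genes of the wider list in Sham LV, Hspb1, a small heat shock protein, which rose from a mean of 12958 to 25287 (log2 difference 0.88 ± 0.20 (SE), adjusted p = 0.0447). Averaged over both surgeries Hspb1 was again the 1 of 50 called (log2 difference 0.56 ± 0.12 (SE), adjusted p = 0.0266). None of 50 was called in 5/6Nx LV and none of 49 in the Control rats.

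In the kidney the members were called in both directions, and so were large shares of all genes. Of the 30, 21 passed the filter on low values in the Control rats, and 8 were higher and 7 lower in 5/6Nx kidney than in Sham kidney, where 24.4% of the 16419 genes tested were called higher and 27.7% lower. The 9 that did not pass the filter were Mybpc3, Myl2, Tnni3, Actn2, Myoz2, Xirp2, Nrap, Unc45b and Smyd1, and none of these exceeded 45.3 normalized reads in any kidney library. Tpm1 ranged from 6484 to 7979.8 (median 7161) normalized reads in Sham Control kidney and from 16231 to 41806 (median 21137) in 5/6Nx Control kidney, with no overlap (log2 difference 1.68 ± 0.18 (SE), adjusted p = 2.05e-05). Csrp3 ranged from 0 to 30 (median 12.3) and from 78 to 325 (median 172) (log2 difference 1.62 ± 0.20 (SE), adjusted p = 4.3e-05). Both kidney groups stood far below the LV of Sham Control rats, where the lowest library of Csrp3 had 50375.

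Tnnt2 and Flnc were also fully apart between those kidney groups, from 25.6 to 69.9 (median 43.4) against from 90 to 384 (median 164) for Tnnt2 (log2 difference 1.0 ± 0.19 (SE), adjusted p = 0.000841) and from 24.8 to 91.6 (median 38.9) against from 92 to 329.6 (median 281) for Flnc (log2 difference 1.22 ± 0.20 (SE), adjusted p = 0.000303). Des (log2 difference 1.32 ± 0.28 (SE), adjusted p = 0.00153), Fhl2 (log2 difference 1.18 ± 0.29 (SE), adjusted p = 0.00367), Ldb3 (log2 difference 0.45 ± 0.12 (SE), adjusted p = 0.00576) and Tmod1 (log2 difference 0.47 ± 0.16 (SE), adjusted p = 0.026) rose with overlapping groups. The call for Tmod1 was lost without Sham Control replicate 4 or 6 (adjusted p up to 0.0647). Of all genes tested 11% had every 5/6Nx Control library above every Sham Control library, and 4 of 21 members did.

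The members that fell in the 5/6Nx Control kidney were led by Tnnc1, Trim63 and Cmya5, whose groups did not overlap (13.4% of all genes in that direction). Tnnc1 ranged from 502 to 1442 (median 806) normalized reads in Sham Control kidney and from 104 to 465 (median 164) in 5/6Nx Control kidney (log2 difference -1.54 ± 0.25 (SE), adjusted p = 0.000268). Trim63 ranged from 175 to 381 (median 276) and from 36.9 to 168 (median 52) (log2 difference -1.20 ± 0.18 (SE), adjusted p = 0.000161). Cryab, which was abundant in the kidney, ranged from 14669 to 20394 (median 16439) and from 5199.8 to 17229.5 (median 8706) (log2 difference -1.02 ± 0.24 (SE), adjusted p = 0.00257). Cmya5, Nebl, Fbxo32 and Pdlim5 fell by 0.55, 0.79, 0.36 and 0.32 on the log2 scale, and the call for Pdlim5 was lost without Sham Control replicate 2, 4 or 5 or 5/6Nx Control replicate 5 (adjusted p up to 0.0714). Of the members that fell, Nebl and Fbxo32 were not called in the LV of PD rats, and the others were higher there. That sets PD rats beside Control rats, and no member was called in the LV of Control rats. In the kidney of PD rats Cryab, Tnnc1 and Cmya5 were again lower, while Trim63 and Pdlim5 were not called.

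In the PD rats, 23 members were tested in the kidney, and 8 were higher and 4 lower in 5/6Nx than in Sham, where 20.2% of the 16450 genes tested were called higher and 19.9% lower. The 8 higher were the same members as in the Control rats: Tpm1 (log2 difference 1.16 ± 0.16 (SE), adjusted p = 8.95e-05), Csrp3 (log2 difference 1.57 ± 0.27 (SE), adjusted p = 0.000405), Des (log2 difference 1.33 ± 0.19 (SE), adjusted p = 0.00014), Flnc (log2 difference 1.19 ± 0.18 (SE), adjusted p = 0.000201), Tnnt2 (log2 difference 1.0 ± 0.18 (SE), adjusted p = 0.000528), Tmod1, Ldb3 and Fhl2. Fhl2 (log2 difference 0.51 ± 0.19 (SE), adjusted p = 0.046) lost its call in 8 of the 13 tests that left out 1 library (adjusted p up to 0.102), and kept it without Sham PD replicate 2 or 6 or 5/6Nx PD replicate 3, 4 or 6. It ranged from 849 to 1317 (median 1075) normalized reads in Sham PD kidney and from 969.8 to 2563 (median 1842) in 5/6Nx PD kidney, and these ranges overlapped. Cryab (log2 difference -1.29 ± 0.17 (SE), adjusted p = 8.11e-05), Tnnc1 (log2 difference -1.02 ± 0.31 (SE), adjusted p = 0.0183), Cmya5 (log2 difference -0.35 ± 0.11 (SE), adjusted p = 0.0196) and Mypn (log2 difference -0.68 ± 0.16 (SE), adjusted p = 0.00465) were lower, while Trim63 was not called (log2 difference -0.44 ± 0.20 (SE), adjusted p = 0.0967). Groups did not overlap for 5 members upwards (7.75% of all genes) and for Cryab downwards (8.12%).

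Markers of other cells moved in the same kidney comparisons. In the Control rats 2 of 5 smooth muscle markers (Tagln and Cnn1), 3 of 6 fibroblast and 6 of 6 macrophage markers were higher, and 5 of 7 tubule and podocyte markers were lower. The summed smooth muscle markers ranged from 5909 to 27404 (median 20992) normalized reads in 5/6Nx Control kidney and from 6459 to 9314 (median 7721) in Sham Control kidney. In the PD rats 3 of 5 smooth muscle markers were higher and 1 lower, and 6 of 6 macrophage markers were higher. Skeletal muscle markers were called higher for 3 of 4 tested in the Control rats, led by Mybpc2, with a mean of 1759 against 567 normalized reads. Mybpc2 made up most of the sum of all 7 such markers. That sum had a median of 1835 in 5/6Nx Control kidney and 577 in Sham Control kidney, so the others stood low. Nrap, a member of cardiac myofibrils, stood at 0 in all 7 of the 5/6Nx Control kidney libraries. The part of smooth muscle and other cells in the kidney differences was not tested.

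**Figure D5:**
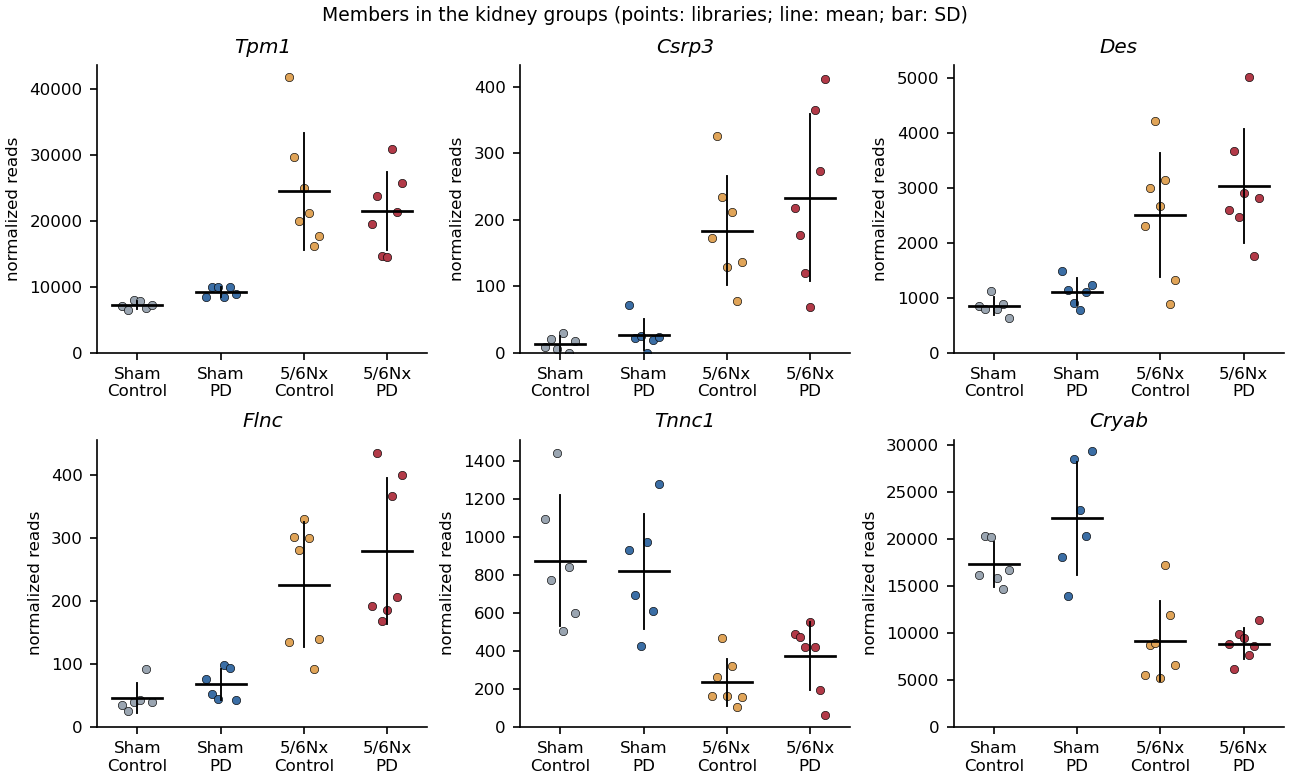
Normalized reads of Tpm1, Csrp3, Des, Flnc, Tnnc1 and Cryab in the kidney groups, each point 1 library (6 per Sham group, 7 per 5/6Nx group), with the mean (line) and the SD (bar). Tpm1, Csrp3 and Flnc of 5/6Nx Control rats lie above all Sham Control libraries, while their Tnnc1 libraries lie below all Sham Control libraries and most of their Cryab libraries do.

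PD against Control called 0 of 21 members in Sham kidney by limma (0.143% of the 16090 genes tested), with 5 at an unadjusted p under 0.05 (17.3% of all genes). Limma-voom called Tpm1 and Fhl2 higher and Cmya5 lower, and it also called more of all genes than limma did. Leaving out Sham PD replicate 4 gave the same 3 calls in limma, and leaving out Sham Control replicate 5 gave that of Fhl2. Fhl2 ranged from 335 to 865 (median 621) normalized reads in Sham Control kidney and from 849 to 1317 (median 1075) in Sham PD kidney (log2 difference 0.81 ± 0.16 (SE), adjusted p = 0.0549), and Tpm1 ranged from 6484 to 7979.8 (median 7161) and from 8360.4 to 9925 (median 9381), with no overlap between its groups (log2 difference 0.35 ± 0.074 (SE), adjusted p = 0.0653), where 0.671% of all genes were apart in that direction. The smooth muscle marker Tagln was called higher in that comparison, with means of 4734 and 2405. In 5/6Nx kidney limma called 0 of 22 members (0.0121% of the 16481 genes tested), with 2 at an unadjusted p under 0.05 (4.18% of all genes), and limma-voom called 0.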

How the data were processed

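Poly-A RNA-seq of rat LV and kidney was analysed from the table that the authors deposited. Per the paper's methods and the submitters' notes, the authors trimmed reads with Trim Galore, aligned them to rn6 with HISAT2, quantified genes with StringTie and transformed counts with DESeq2, so that the deposited values are log2-scale variance-stabilized counts over all 52 libraries. Every value inverted to a whole read within 0.001, which gave the reads per library and the size factors. The deposited tables of the authors' own tests hold fold changes and p-values and were not used. At adjusted p under 0.05, the paper reports more genes for PD against Control than limma called here, in both tissues and surgeries. A gene name that stands on more than 1 row is carried by 1008 rows.

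Each comparison was tested with limma 3.58.1 (trend and robust, R 4.3.3, two-sided) on the deposited log2 values of the groups compared, after removing genes that reached 10 normalized reads in fewer libraries than the smallest group has. Benjamini-Hochberg adjusted p-values under 0.05 were called. The script was tested on simulated data, where 85.1% of genes changed 2-fold and 44.8% of those changed 1.5-fold were recovered for LV 5/6Nx PD against LV Sham PD. The simulation changed far fewer genes than were called in that real comparison, so these shares do not give its recovery. Values describe the spread between these libraries, numbered in accession order within a group. All members were named, other sarcomere genes by the 6 smallest adjusted p. The members, lists and tests were chosen with earlier results of these data known. Alternatives were no filter, log2 of normalized reads plus 1, limma-voom, other scalings, 1 fit per tissue and leaving out each library.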

Additional observations from a re-analysis of the deposited data

Results flagged for a closer look

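Of 197 group values tested for a single extreme library by Dixon's criterion on normalized reads, 17 were set apart (8.63%). The criterion sets apart about 1 in 20 groups of independent, normally distributed values. Members share libraries and often move together, and reads need not be normally distributed, so the share cannot be judged against that rate. Group values were tested in the LV for each member, and in the kidney where the lowest library had at least 10 normalized reads.

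LV Sham PD replicate 2 was set apart as the highest of its group for 5 members: Nebl at 7483 normalized reads (next library 2203), Synpo2l at 4153 (1612), Cmya5 at 62721 (28876), Smyd1 at 5672 (2163) and Fbxo32 at 5505 (2145). It had the lowest summed endothelial markers of its group, and its part in these values was not tested.

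LV 5/6Nx Control replicate 1 was set apart as the highest for 4 members: Tnnt2 at 1176051 (next 896944), Tnnc1 at 343802 (234199), Tpm1 at 727013 (570425) and Des at 278289.6 (178808). In LV 5/6Nx PD, Tmod1 in replicate 1 stood at 32974 (next 24203) and Xirp1 in replicate 7 at 6357, below the others (next 10057).

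In the kidney, Tnnt2 stood at 384 in 5/6Nx Control replicate 3 (next 202), Tmod1 at 795 in 5/6Nx Control replicate 1 (next 470) and Flnc at 91.6 in Sham Control replicate 5 (next 43.1). Nebl stood at 520.2 in Sham PD replicate 3 (next 219) and at 329 in 5/6Nx PD replicate 2 (next 157). Pdlim5 was low, at 656, in Sham PD replicate 6 (next 1050).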

How the results depend on the processing

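Within a tissue no paired analysis was possible because the groups compared are different rats. For LV against kidney in the Sham Control rats, a replicate block that paired libraries whose numbers differ by 26, chosen after seeing the data, called 30 of 30 members higher in LV, as did the fit without it. Deviations from the group mean correlated between -0.041 and 0.24 within the 6 pairs, and 2 of 6 LV libraries correlated best with their own pair. Of 7501 values of single members under the alternatives, 7331 kept their side of the threshold, 58 passed it and 85 fell short of it. A change of sign was counted only where a member was called in the fit as reported or in the alternative. Sign changes of members called in neither fit stand among the 7331. The remaining 27 values belonged to members called before and turned below 0, all 27 with libraries scaled to the cardiomyocyte genes outside the contractile apparatus. By construction that scaling measures members against other cardiomyocyte genes. In LV 5/6Nx PD against LV Sham PD it left 4 of 28 calls and turned Mybpc3 (-0.099), Myl2 (-0.33), Myl3 (-0.35), Myom2 (-0.11), Tnnt2 (-0.29), Tnni3 (-0.32), Tnnc1 (-0.23), Tpm1 (-0.16), Actn2 (-0.18), Myoz2 (-0.12), Csrp3 (-0.30), Nrap (-0.15), Cryab (-0.34), Unc45b (-0.14) and Trim63 (-0.22). Averaged over both treatments it left 8 of 27 calls and turned Mybpc3 (-0.0027), Myl2 (-0.11), Myl3 (-0.22), Myom2 (-0.12), Tnnt2 (-0.073), Tnnc1 (-0.12), Tpm1 (-0.090), Actn2 (-0.097), Myoz2 (-0.00036), Cryab (-0.083), Unc45b (-0.080) and Trim63 (-0.12). Limma-voom called 7 members for 5/6Nx in LV Control rats, 1 for the difference between the PD changes and 3 for PD in Sham kidney, and 1 fit of all LV groups called 3 in the Control rats, where the limma test as reported called 0 in each, and the cause was not tested. Leaving out 1 library gave 0 to 2 member calls for PD in Sham LV, 0 to 5 for 5/6Nx in LV Control rats, 21 to 29 in LV PD rats, 0 to 1 for the difference between the PD changes, 26 to 29 averaged over both treatments, 0 to 3 for PD in Sham kidney, and 13 to 17 and 11 to 12 for 5/6Nx in Control and PD kidney. Over all genes, limma-voom moved the calls for PD in Sham LV from 194 to 1409, for 5/6Nx in LV Control rats from 11 to 660 and for the difference between the PD changes from 113 to 1019, and the cardiomyocyte scaling turned 2872 higher and 3097 lower calls in LV PD rats into 83 and 12840, and 2927 and 3303 averaged over both treatments into 124 and 13450. Leaving out 1 library gave 62 to 1646, 6 to 304 and 2 to 695 calls over all genes in the first 3 of these comparisons. A limma fit of all groups of a tissue gave 107 for PD in Sham LV, 263 for 5/6Nx in LV Control rats, 61 in place of 14 for PD in 5/6Nx LV, 9 in place of 23 for PD in Sham kidney and 20 in place of 2 for PD in 5/6Nx kidney. The cardiomyocyte scaling gave 67, 0 and 1 for the first 3 of these, 11 for the difference between the PD changes and 26 in place of 84 for PD averaged over both surgeries, for which limma-voom gave 145. Without a filter PD in 5/6Nx LV had 9 calls, the difference between the PD changes 57 and PD in Sham kidney 11, for which limma-voom gave 171. Single members also lost calls. In LV PD rats Myl3 did without a filter (limma, adjusted p = 0.0522) or with upper-quartile scaling (0.0597). Myom2 did there without a filter (0.0503). In Control kidney Pdlim5 did with limma-voom (0.0535), size factors within the tissue (0.0532) or upper-quartile scaling (0.0814). In PD kidney Fhl2 did without a filter (0.0549) or in 1 fit of all groups (0.116), and Tnnc1 with limma-voom (0.0537). At the sizes simulated for LV Control rats, 35.8% of genes changed 1.5-fold were recovered, so that smaller changes of such genes were mostly out of reach at this number of libraries. The simulation drew every gene independently, without variation shared by the genes of a library. It therefore does not give the recovery for the members, which often moved together within a library.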
